A study of Mus musculus with 5 samples.

Results

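A set of 10 genes of the matrix-degrading machinery of the mouse heart was followed: the metalloproteinase inhibitors Timp1, Timp2, Timp3 and Timp4, the matrix metalloproteinases Mmp2, Mmp3 and Mmp14, and the secreted proteases Adamts1, Adamts2 and Adamts5. They were taken by gene symbol, 10 of the 31053 genes in the count matrices, and all 10 were found. Their unique molecular identifiers (UMIs, each standing for 1 captured transcript) were read in fibroblasts, endothelial cells, mural cells (pericytes and smooth muscle) and macrophages, each gated from single-cell barcodes by marker genes.

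The control group was Ctla4+/+Pdcd1-/- (4 mice, libraries of replicates 1 and 2). The disease group was Ctla4+/-Pdcd1-/- (10 mice, libraries of replicates 3, 4 and 5) and served as a model of the myocarditis seen under immune checkpoint inhibitors. Both groups thus lacked Pdcd1, and they differed in 1 allele of Ctla4. Hearts were digested with collagenase I, DNase I and hyaluronidase and pooled, and live nucleated cells were sorted for the 5-prime 10x Genomics chemistry. How the mice were divided among libraries, and their age and sex, are not given in the sources used here. The genotype field of 3 libraries names another Pdcd gene (Pdcd2 or Pdcd3), and groups follow the titles and the design text. Ctla4 UMIs in the T cell gate, scaled to a total of 1000000 (CPM), came to 405 and 78.8 for control replicates 1 and 2, against 158, 637 and 558 for disease replicates 3, 4 and 5. Pdcd1 came to 595 and 105 CPM against 281, 1050 and 826 CPM, so neither gene settled the labels; which part of each gene the alleles lack is not given in the sources used here.

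Matrix metalloproteinases are zinc enzymes that cut collagens, proteoglycans and other matrix proteins, and most are made as inactive zymogens. Membrane-bound Mmp14 activates the Mmp2 zymogen in a complex in which Timp2 acts as the bridge, so an inhibitor takes part in activation there. Adamts1 and Adamts5 cut versican and aggrecan, Adamts2 removes the amino-terminal propeptide of fibrillar procollagens, and Timp3, which stays bound to the matrix, inhibits several ADAMTS proteases as well as metalloproteinases. In the heart these enzymes and inhibitors are known for their part in remodelling after injury and inflammation.

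On GRCm38 the inhibitor genes have a shared position, which the choice of members did not use: 3 of the 4 lie within a synapsin gene on the opposite strand. Timp1 (chromosome X, 20870166 to 20874735, plus strand) lies inside Syn1, Timp3 (chromosome 10, 86300372 to 86349506, plus strand) inside Syn3, and Timp4 (chromosome 6, 115241892 to 115252205, minus strand) inside Syn2. These hosts had few UMIs, at most 655 over 5 libraries in any gate (Syn3 in fibroblasts, against 47230 for Timp3). Where an inhibitor itself was at background the host could exceed it, as with 421 Syn2 and 74 Timp4 UMIs in fibroblasts. Whether counting used strand is not given in the sources used here. Adamts1 (chromosome 16, 85793827 to 85803113) and Adamts5 (chromosome 16, 85856173 to 85901828) are neighbours on the minus strand, 53.1 kb apart.

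Upstream sequences are shown for 5 members, to set genes of different sites of expression side by side: Timp4 (endothelial), Timp3 (fibroblast, endothelial and mural), Timp1 and Mmp3 (fibroblast) and Adamts1 (with mural cells among the highest). They come from RefSeq promoters on GRCm38.p6, which matched 8 of the 10 members. They read 5′ to 3′ toward the start of the gene and end before its annotated first base. Capitals mark matches to the motifs named after them.
Timp4: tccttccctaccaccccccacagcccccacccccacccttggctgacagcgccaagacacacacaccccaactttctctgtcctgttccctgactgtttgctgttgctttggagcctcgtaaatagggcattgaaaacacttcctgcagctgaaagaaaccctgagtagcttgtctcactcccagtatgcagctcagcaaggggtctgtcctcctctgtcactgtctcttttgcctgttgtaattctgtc
Timp3: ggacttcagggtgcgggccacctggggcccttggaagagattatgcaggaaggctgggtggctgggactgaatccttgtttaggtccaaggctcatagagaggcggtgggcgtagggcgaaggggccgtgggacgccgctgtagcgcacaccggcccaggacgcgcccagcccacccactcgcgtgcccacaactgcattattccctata
Timp1: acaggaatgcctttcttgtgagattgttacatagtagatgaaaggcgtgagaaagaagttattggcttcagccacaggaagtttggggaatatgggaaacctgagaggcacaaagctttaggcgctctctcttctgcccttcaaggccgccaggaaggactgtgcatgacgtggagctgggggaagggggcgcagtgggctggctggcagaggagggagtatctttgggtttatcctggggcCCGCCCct
Mmp3: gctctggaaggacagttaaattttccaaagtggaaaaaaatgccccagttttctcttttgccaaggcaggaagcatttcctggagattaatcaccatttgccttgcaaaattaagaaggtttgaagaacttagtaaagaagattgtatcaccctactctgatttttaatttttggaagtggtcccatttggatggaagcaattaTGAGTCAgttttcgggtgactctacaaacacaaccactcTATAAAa
Adamts1: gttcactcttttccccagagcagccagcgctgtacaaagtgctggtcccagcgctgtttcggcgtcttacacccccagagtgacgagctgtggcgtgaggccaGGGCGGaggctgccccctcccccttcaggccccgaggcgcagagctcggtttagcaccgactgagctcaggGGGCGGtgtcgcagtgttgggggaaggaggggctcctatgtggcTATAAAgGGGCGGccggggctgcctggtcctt
They cover chr6:115252206-115252455 (minus strand) for Timp4, chr10:86300162-86300371 (plus) for Timp3, chrX:20869916-20870165 (plus) for Timp1, chr9:7445572-7445821 (plus) for Mmp3 and chr16:85803114-85803363 (minus) for Adamts1. The letters searched in 250 bases were the TATA box TATAAA on the gene's own strand and, on both strands, the AP-1 motif TGANTCA, the STAT motif TTCNNNGAA, the GC box GGGCGG and the ETS motif CCGGAAG. Of 32851 promoters, 7.59%, 6.75%, 7.02%, 32.7% and 6.91% held them. Mmp3 had an AP-1 match (TGAGTCA) whose first base was 46 bases before the RefSeq start and a TATA match 7 bases before it. Adamts1 had a TATA match 32 bases before the start and 3 GC boxes, which do not overlap it. Timp1 had 1 GC box, and Timp4 held none of the 5 motifs in this window. For Timp3 the 1 match found, a GC box 15 bases before the RefSeq start, lies past the end of the printed stretch, which stops at the annotated gene.

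After removal of barcodes under 500 UMIs, under 200 genes or over 10% mitochondrial UMIs, 38312 of 47319 barcodes remained, with 24991704 to 55053988 UMIs per library before removal and medians of 3368 to 4668 per barcode after it. Removal took 12.4 to 32.5% of a library, most in disease replicate 3. A barcode entered a gate with at least 3 of 6 markers and at most 1 marker of each other class. The gates held 8925 fibroblast, 9932 endothelial, 105 mural and 3336 macrophage barcodes, and per library as few as 1278, 1475, 11 and 408. All 16 held-out markers, such as Col3a1, Cldn5, Pdgfrb and Lyz2, were highest in their own gate in 5 of 5 libraries. Cardiomyocyte markers summed to 499 to 712 CPM in the endothelial gate and to 19.1 to 40.7 CPM in fibroblasts. In the mural gate they summed to 98.8 to 594 CPM. Its own held-out markers summed to 1536 to 1847 CPM. Held-out fibroblast markers came to 738 to 1278 CPM there, and endothelial markers to 542 to 923 CPM. T cells were 17.1% of the retained barcodes in disease replicate 4 and 1.5 to 5.78% elsewhere. Pairs of libraries shared 86 to 161 barcode sequences, 1.33 to 1.90% of the smaller library.

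In droplet data a gene can have UMIs in cells that do not make it, through free RNA. A member was therefore taken as above background in a gate when, in 5 of 5 libraries, it exceeded its level in the T cell gate and, outside fibroblasts, its ratio to the fibroblast level exceeded that of each of 4 held-out fibroblast markers. This rule was chosen after values were seen. By it, 9 of 10 members were above background in fibroblasts (Timp4 was not), 5 in endothelial cells (Timp3, Timp4, Mmp14, Adamts1 and Adamts5), 2 in mural cells (Timp3 and Adamts1) and 2 in macrophages (Timp2 and Mmp14). Levels below it are given as values and no more.

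**Figure D1:**
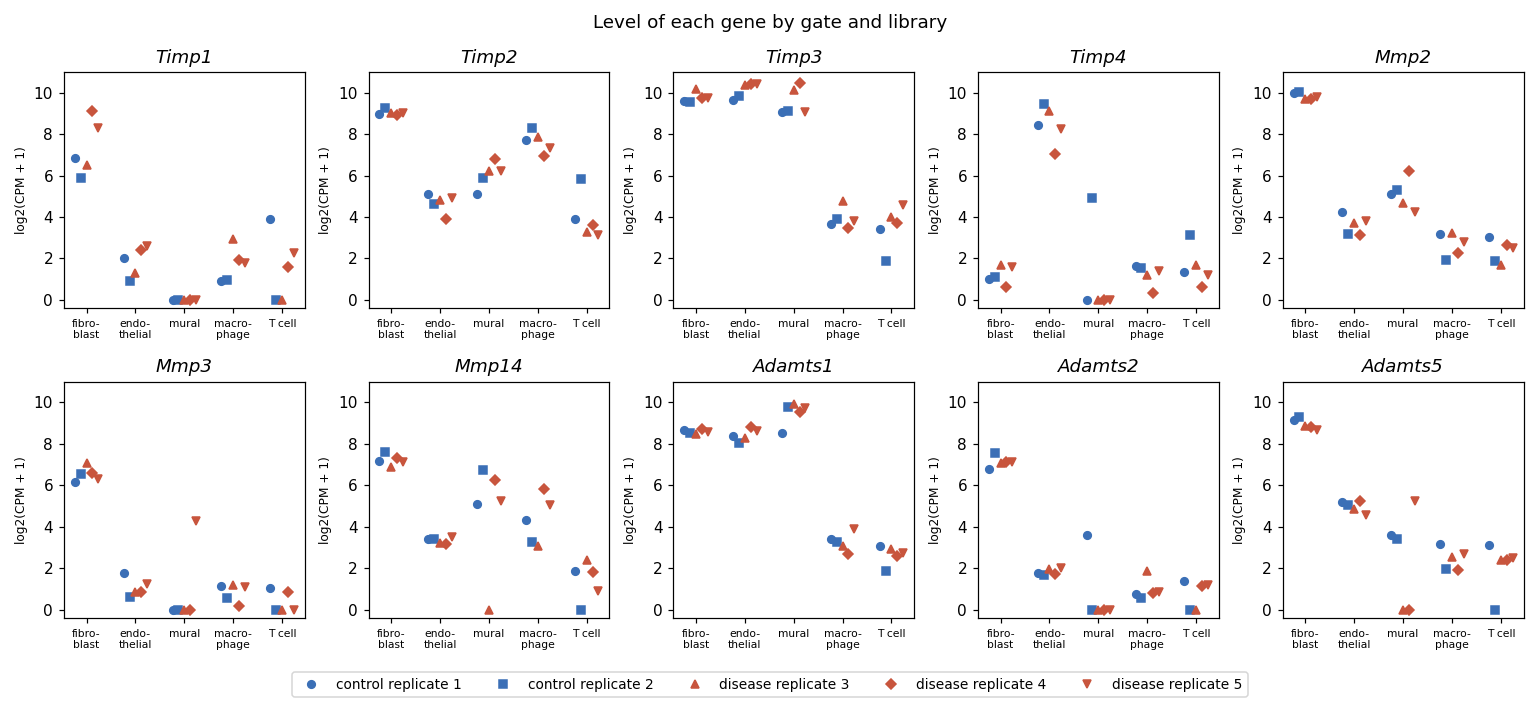
Level of each of the 10 genes as log2(CPM + 1) on the vertical axis, by gate on the horizontal axis; each point is 1 library, blue for control and red for disease. Timp4 stands high in the endothelial gate alone, Timp3 and Adamts1 in 3 gates, and Timp2 in fibroblasts and macrophages; the T cell gate shows the background.

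The members were mostly fibroblast genes, and each had its own spread over the other cell types. Against endothelial cells, fibroblasts had the higher level of 7 of 10 members, and the lower level of 1, Timp4 (edgeR quasi-likelihood test with Benjamini-Hochberg adjustment, library as a block, adjusted p at most 5.7e-14). Among all genes 36.2% were higher and 34.1% lower, 70.2% in all. Against macrophages 9 of 10 members passed, all higher in fibroblasts (41.6% of all genes, with 31.7% lower and 73.2% in all). Between endothelial cells and macrophages 8 of 10 passed, 6 higher in endothelial cells and 2, Timp2 and Mmp14, higher in macrophages (71.6% of all genes, 40.2% and 31.4% by direction). Of those 6, Mmp2 and Adamts2 were within background in both gates, so their differences are not read as expression. Against mural cells 8 of 10 were higher in fibroblasts (25.3% of all genes passed) and 3 of 10 higher in endothelial cells (28.9%). Between mural cells and macrophages 4 of 10 differed (35.6%). Timp3, Adamts1 and Mmp2 were higher in mural cells, and Timp2 was higher in macrophages. Mmp2 was within background in both of these gates and Timp2 in mural cells, so the Mmp2 difference is not read as expression. Mural counts rest on few UMIs in each comparison. By DESeq2 these 3 comparisons with mural cells called 10, 6 and 5 members, and its shares over all genes are not given here. Between fibroblasts and mural cells it added Timp4 and Adamts1, for which edgeR had values of the other direction (-1.99 and -0.27). Timp4 was within background in both gates, and its 3 mural UMIs were all in control replicate 2.

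Timp1, an inhibitor that is induced by inflammatory cytokines, was a fibroblast transcript. Control fibroblasts of replicates 1 and 2 had 112 and 58.3 CPM, and disease fibroblasts of replicates 3, 4 and 5 had 89.0, 553 and 308 CPM. Disease replicates 4 and 5 stood above the other 3 libraries, and replicate 3 lay between the controls. In endothelial cells and macrophages it ranged from 0.860 to 6.54 CPM, within background. The mural gate had 0 UMIs of Timp1 in 5 libraries, and fibroblasts were at least 22.9-fold higher than the floor of 3 UMIs over the pooled mural gate (9.51 CPM). Fibroblasts exceeded endothelial cells by 6.14 on the log2 scale (SE 0.25, edgeR adjusted p 1.42e-16).

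Timp2, which both inhibits Mmp2 and helps Mmp14 to activate it, was at 495 and 607 CPM in control fibroblasts and at 513, 478 and 519 CPM in disease fibroblasts. The groups overlapped. Macrophages were the other of the 4 gates with Timp2 above background, at 207 and 312 CPM in controls and at 232, 122 and 161 CPM in disease. Fibroblasts exceeded macrophages by 1.20 on the log2 scale (SE 0.14), in the edgeR test across gates, the smallest of the 9 differences that passed between these gates. Of the Timp2 UMIs in a library's retained barcodes, 51.3 to 73.1% were in the fibroblast gate and 6.75 to 11.2% were in the macrophage gate.

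Timp3, the matrix-bound inhibitor, was shared by fibroblasts, endothelial cells and mural cells. Its mean over 5 libraries was 880 ± 162 CPM (SD, n = 5) in fibroblasts, 1151 ± 273 CPM in endothelial cells and 831 ± 402 CPM in mural cells, against 15.1 ± 6.57 CPM in macrophages. Fibroblasts and endothelial cells did not differ past the threshold (log2 difference -0.26, SE 0.14, edgeR adjusted p 0.0861; it passed under 2 of 10 alternatives), while both exceeded macrophages, by 5.75 and 6.01 on the log2 scale. Endothelial cells exceeded mural cells by 1.17 (SE 0.17), and fibroblasts did so by 0.91 (SE 0.17), in the same edgeR test.

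The size of these mural differences turned on the scaling. With plain library totals in place of the TMM factors, which moved the median gene by -0.61 (fibroblast against mural) and -0.49 (endothelial against mural), the Timp3 differences were 0.21 (edgeR adjusted p 0.537) and 0.58. With the looser gate of at least 2 markers they were -0.07 and 0.23, and neither passed. Endothelial against mural passed under 8 of 9 alternatives, plain totals among them, and kept its sign in all 9. Fibroblast against mural passed under 7 of 9 and kept its sign in 8. Of genes called between fibroblasts and mural cells 79.5% were higher in fibroblasts with TMM and 46.1% with plain totals, and between endothelial and mural cells 72.9 and 47.3% were higher in endothelial cells.

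Timp4 was endothelial. It was at 341 and 706 CPM in control endothelial cells and at 545, 132 and 302 CPM in disease endothelial cells. The groups overlapped, with control replicate 2 highest and disease replicate 4 lowest. Fibroblasts had 0.528 to 2.26 CPM and macrophages 0.248 to 2.06 CPM, at the level of the T cell gate (0.526 to 7.88 CPM). Endothelial cells exceeded fibroblasts by 7.99 on the log2 scale (SE 0.20). They held 52.8 to 82.0% of the Timp4 UMIs in a library's retained barcodes.

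Mmp2, gelatinase A, was at 999.8 and 1056 CPM in control fibroblasts and at 821, 819.7 and 895 CPM in disease fibroblasts. The disease libraries lay below both controls. Endothelial cells had 7.73 to 17.7 CPM, which was within background, and the mural gate had 11 Mmp2 UMIs in all. Mmp3, stromelysin, was at 69.6 and 91.5 CPM in control fibroblasts and at 133, 96.2 and 78.1 CPM in disease fibroblasts, which overlapped, and at no more than 2.40 CPM in endothelial cells and macrophages. Fibroblasts held 66.4 to 88.4% of the Mmp2 UMIs and 60.5 to 88.3% of the Mmp3 UMIs in a library's retained barcodes.

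Mmp14, the membrane-bound collagenase, was at 145 and 192 CPM in control fibroblasts and at 117, 156 and 136 CPM in disease fibroblasts, with overlap. It was lower but above background in macrophages and in endothelial cells (7.98 to 10.4 CPM). The edgeR log2 difference was 4.12 (SE 0.27) between fibroblasts and endothelial cells and 2.34 (SE 0.25) between fibroblasts and macrophages. Macrophages had 19.3 and 8.49 CPM for the controls and 7.41, 56.2 and 31.9 CPM for disease replicates 3, 4 and 5. In the fit over libraries they exceeded endothelial cells by 1.78 (SE 0.30, edgeR adjusted p 7.11e-06), although in CPM they were higher in 3 of 5 libraries and slightly lower in control replicate 2 and disease replicate 3.

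Adamts1 was held by 3 gates. It was at 402, 369, 357, 414 and 373 CPM in fibroblasts of replicates 1 to 5 and at 327, 259.9, 312, 452 and 391 CPM in endothelial cells. The mural gate, with 227 Adamts1 UMIs in all, had 369.9, 861, 963, 738 and 832 CPM, above fibroblasts in 4 of 5 libraries. Fibroblasts and endothelial cells did not differ past the threshold (log2 0.27, SE 0.16, edgeR adjusted p 0.144; it passed under 1 of 10 alternatives). Mural cells against endothelial cells missed it as well (log2 difference, endothelial minus mural, -0.54, SE 0.21, adjusted p 0.0534), and passed under 6 of 9 alternatives, with -1.10 under plain totals and -1.17 with the looser gate. Fibroblast minus mural was -0.27 with TMM (SE 0.21, edgeR adjusted p 0.3695). It was -0.94 with plain totals, -1.06 with the looser gate and -0.64 by DESeq2, past the threshold in these 3.

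Adamts2, the procollagen N-proteinase, and Adamts5, an aggrecanase, were fibroblast transcripts. Adamts2 was at 108 and 187 CPM in control fibroblasts and at 135, 139.97 and 138 CPM in disease fibroblasts, all 3 between the controls. It stayed at or under 3.04 CPM in endothelial cells and macrophages. Adamts5 was at 573 and 626 CPM in control fibroblasts and at 462, 444 and 408 CPM in disease fibroblasts, which did not overlap. Endothelial cells had 22.8 to 37.1 CPM of Adamts5, above background and 4.15 lower on the log2 scale (SE 0.15). Its genomic neighbour Adamts1 differed from it in this respect, being near the same level in both cell types.

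To compare how many cells carried each gene, barcodes were thinned to 1000 UMIs each. In fibroblasts the median over libraries was 55.3% for Mmp2, 50.7% for Timp3, 36.8% for Timp2, 34.2% for Adamts5 and 29.9% for Adamts1, then 13.1% for Adamts2, 12.2% for Mmp14, 6.07% for Timp1 and 3.68% for Mmp3. Unthinned, fibroblasts had 91.2 to 94.3% with a UMI of Mmp2 and 19.2 to 34.7% with one of Timp1. In endothelial cells 64.6% of thinned barcodes had a UMI of Timp3, 22.7% of Timp4 and 19.9% of Adamts1 (unthinned 78.2 to 87.4%, 23.7 to 57.1% and 33.3 to 41.6%). In macrophages 18.3% had one of Timp2 (unthinned 47.2 to 66.7%). The T cell gate had 1.81% for Timp3, 0.903% for Timp2 and for Mmp2, and 0.722% for Adamts1. Median depths per library were 5352 to 6160.5 UMIs in fibroblasts, 2227 to 3047.5 in endothelial cells, 5176.5 to 6502.5 in macrophages and 3771.5 to 4769 in the T cell gate.

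The comparison of disease with control asked whether these genes shifted within each cell type between the genotypes. Disease replicate 3 stood with the controls in 2 measures of immune cells: T cells were 1.82% of its retained barcodes (3.69 and 1.5% in controls, 17.1 and 5.78% in disease replicates 4 and 5), and Cxcl9 or Fcgr4 barcodes, described with the macrophages, were 9.20% of its macrophages. Timp3 rose in endothelial cells and Adamts5 fell in fibroblasts. No other member passed the threshold in any gate. In fibroblasts 1 of 10 members passed, against 12.8% of all genes tested, and in endothelial cells 1 of 9, against 11.7%. In macrophages 0 of 7 passed (6.7% of all genes; 1, Timp1, at an unadjusted p under 0.05, and 0 by DESeq2), and in mural cells 0 of 2 (4.84% of all genes; 0 unadjusted and 0 by DESeq2). These are edgeR quasi-likelihood tests, and the members' shares were near the background in fibroblasts and endothelial cells. Separate mice are not assured for each library, so the p-values measure the spread between these libraries, which may be in part technical.

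**Figure D2:**
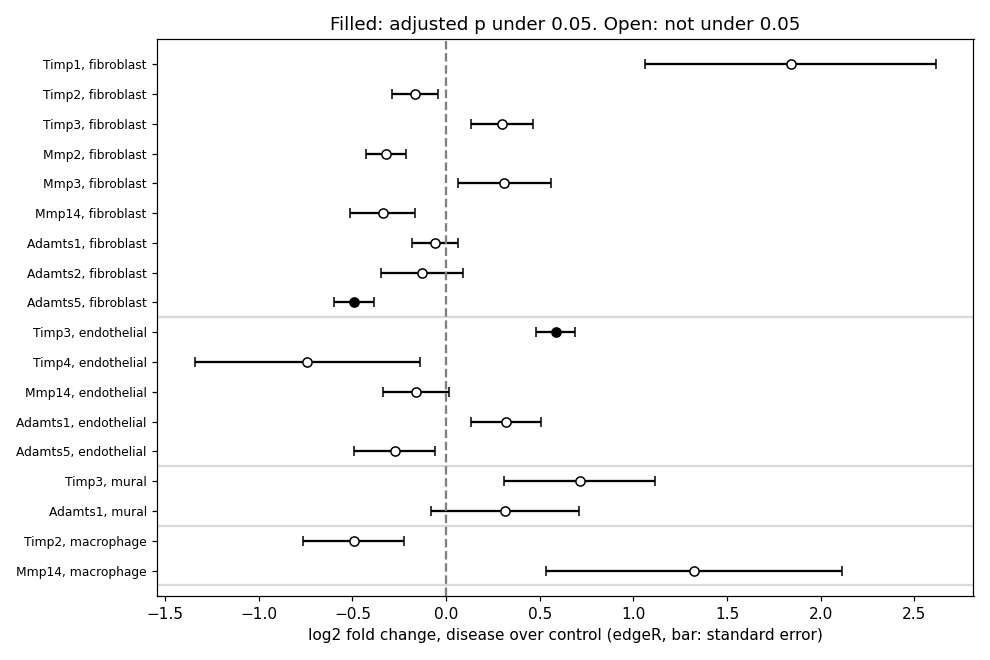
Log2 fold change, disease over control, from edgeR on the horizontal axis, with bars of 1 standard error, for the members above background in each gate. Timp3 in endothelial cells (0.58) and Adamts5 in fibroblasts (-0.49) are the filled points, past an adjusted p of 0.05; Timp1 in fibroblasts (1.84) and Mmp14 in macrophages (1.32) lie farther from 0 with wider bars.

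Endothelial Timp3 reached 803 and 909 CPM for control replicates 1 and 2, compared with 1311, 1374 and 1358 CPM for disease replicates 3, 4 and 5. The 3 disease libraries lay close together and above both controls. The means were 856 ± 74.6 CPM (SD, n = 2) and 1347 ± 32.7 CPM (SD, n = 3), and the log2 fold change came to 0.58 with an SE of 0.10 and an edgeR adjusted p of 0.0168, in a comparison where 0.3% of genes were called higher. It ranged from 0.50 to 0.92 over 13 alternatives and passed in 9 of them. It missed the threshold when control replicate 1 or 2 or disease replicate 3 or 5 was left out, with adjusted p of 0.105, 0.0680, 0.0539 and 0.0828. With lymphatic and endocardial barcodes taken out, the remaining 9765 barcodes gave 780 and 884 CPM against 1284, 1368 and 1340 CPM.

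Timp3 was also above both controls in fibroblasts of each disease library, at 768 and 750.3 CPM against 1153, 866 and 863 CPM, but the log2 fold change there, 0.30 with an SE of 0.17, did not pass (edgeR adjusted p 0.298). With each library's GC trend removed it was 0.65 and passed (0.0468). In mural cells it was at 538 and 561 CPM against 1111, 1403 and 542 CPM, where disease replicate 5 lay between the controls, with a log2 fold change of 0.71, an SE of 0.41 and an edgeR adjusted p of 0.541. The test of the difference between fibroblasts and endothelial cells in the disease effect on Timp3 gave -0.32 (SE 0.25, edgeR adjusted p 1.00), so an endothelial-specific rise was not shown.

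Adamts5 in fibroblasts averaged 599 ± 37.0 CPM (SD, n = 2) in controls and 438 ± 27.6 CPM (SD, n = 3) in disease. On the log2 scale it changed by -0.49 (SE 0.11, edgeR adjusted p 0.0379), where 12.5% of genes were called lower. The value stayed between -0.54 and -0.44 over 13 alternatives and passed in 5 of them. Among those under which it missed the threshold were the strict gate (adjusted p 0.114), the removal of control replicate 1 (0.137), control replicate 2 (0.230), disease replicate 3 (0.0508) or disease replicate 5 (0.159), and plain totals (0.0544). For endothelial Adamts5 the log2 fold change, -0.28 with an SE of 0.22, did not pass (edgeR adjusted p 0.485), and the disease effect did not differ detectably between the 2 gates (-0.21, SE 0.28, adjusted p 1.00).

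**Figure D3:**
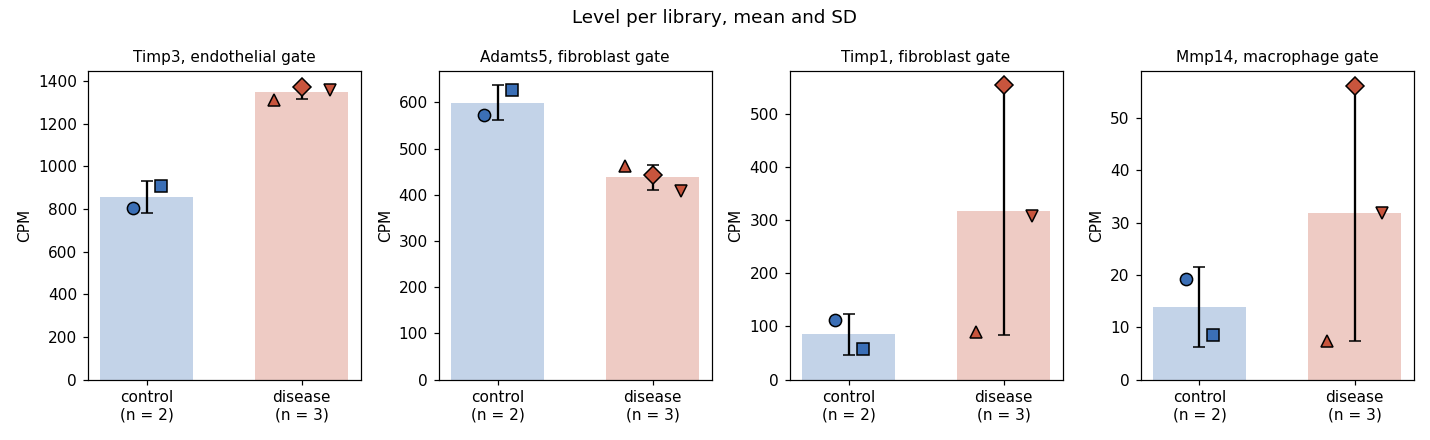
CPM per library (points), mean (bar, from 0) and SD (line) in control (n = 2) and disease (n = 3). Endothelial Timp3 and fibroblast Adamts5 do not overlap between the groups; for fibroblast Timp1 and macrophage Mmp14, disease replicates 4 and 5 are high and replicate 3 lies within or below the controls.

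Among members above background the largest fold change was that of Timp1 in fibroblasts, whose values are given above. The mean was 85.2 ± 38.1 CPM (SD, n = 2) in controls and 317 ± 232 CPM (SD, n = 3) in disease, and the log2 fold change of 1.84 had an SE of 0.78 and did not pass (edgeR adjusted p 0.192). Without disease replicate 3, which overlapped the controls, it was 2.28 and passed (edgeR adjusted p 0.0347), and without disease replicate 4 it was 1.16 (adjusted p 0.2996). Without the deepest 5% of barcodes it was 1.19 (adjusted p 0.212).

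Activated fibroblasts that express Postn, the gene of the matricellular protein periostin, had the most Timp1. Barcodes with at least 2 UMIs of Postn were at 308 and 272 CPM in controls, compared with 241, 2490 and 985 CPM for disease replicates 3, 4 and 5. Barcodes with a UMI of Pi16 or Dpp4, markers of an adventitial fibroblast state, and fewer than 2 of Postn formed another division. This division held 72.0 and 72.8% of control fibroblasts and 71.7, 68.8 and 69.7% of disease fibroblasts. It was thus most of the gate and is not read as adventitial cells alone. It had 100.2 and 49.0 CPM of Timp1 against 67.2, 224 and 132 CPM. The remaining fibroblasts had 57.3 and 34.8 against 72.0, 289 and 103 CPM. Postn+ barcodes were thus higher in Timp1 than both other divisions in 5 of 5 libraries, by a median ratio of 5.55 and 7.82. They were 6.18 and 3.60% of control fibroblasts and 8.59, 8.92 and 14.4% of disease fibroblasts, and held 24.8 and 24.4% of the Timp1 UMIs of control fibroblasts and 32.9, 63.3 and 67.1% of those of disease fibroblasts. In disease replicates 4 and 5 Timp1 was higher than in either control within each of the 3 divisions, so that both the share of Postn+ barcodes and the level inside each division were higher in those 2 libraries. A barcode with more UMIs enters the Postn+ division more easily, and its median depth was 7293 to 9323 UMIs against 3847 to 4421 in the remaining fibroblasts. The part of depth in these values was not tested.

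The divisions of the fibroblast gate also separated other members, each in the same direction in 5 of 5 libraries. Adamts5 was lower in Postn+ than in Pi16 or Dpp4 barcodes, at 340 and 431 against 600.0 and 639 CPM in controls and at 316, 254 and 301 against 508, 488 and 450 CPM in disease. Adamts5 was below both controls in each disease library within each of the 3 divisions. Adamts1 was lower in Postn+ barcodes too (median ratio 0.673), while Mmp2 and Adamts2 were higher there (1.12 and 1.30). The remaining fibroblasts had fewer than 2 UMIs of Postn and none of Pi16 and Dpp4. They had more Timp3 than those with Pi16 or Dpp4 (median ratio 1.53) and more Mmp3 (2.11), and less Timp2 (0.646). Their Mmp3 was at 129.7 and 142 CPM in controls and at 329, 134 and 214 CPM in disease. In these descriptions no test was made.

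**Figure D4:**
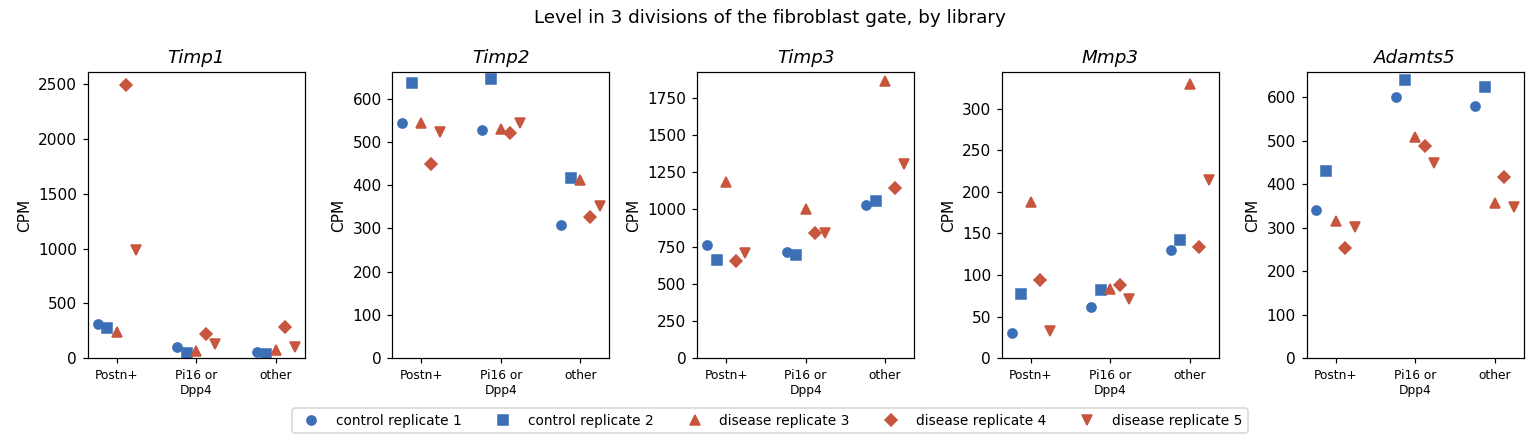
CPM of 5 members in 3 divisions of the fibroblast gate (Postn+; Pi16 or Dpp4; other), 1 point per library, axes from 0. Timp1 is highest in the Postn+ division, with disease replicate 4 at 2490 CPM; Timp3 and Mmp3 are highest in the other fibroblasts, and Adamts5 is lowest in the Postn+ division of each library.

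The other fibroblast members did not pass. Mmp2 changed by -0.32 on the log2 scale (SE 0.11, unadjusted p 0.0250, edgeR adjusted p 0.121), with means of 1028 ± 39.6 CPM (SD, n = 2) and 845 ± 43.1 CPM (SD, n = 3). It was not called under any of 13 alternatives, where the value ranged from -0.38 to -0.28. Mmp14 was at -0.34 (edgeR adjusted p 0.266), Timp2 at -0.17 (0.416) and Mmp3 at 0.31 (0.456). Adamts2 (-0.13) and Adamts1 (-0.06) had edgeR adjusted p of 0.732 and 0.783. The 3 fibroblast members whose groups did not overlap were Timp3, Mmp2 and Adamts5, 3 of 10 against 50.7% of all genes.

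The genes of pro-Mmp2 activation were also read together. Mmp2, Mmp14 and Timp2 had fold changes in fibroblasts of -0.32, -0.34 and -0.17, of which none passed, and with the GC trend removed Timp2 turned to 0.20 and Mmp14 went to -0.0033. In thinned fibroblasts 2.22 to 4.58% of barcodes had UMIs of all 3 genes, against 2.13 to 4.47% from the product of their single shares.

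In macrophages Mmp14 and Timp2 differed in which cells carried them. Of the macrophage Mmp14 levels given above, disease replicates 4 and 5 were above both controls, and replicate 3 was below both. The log2 fold change of 1.32 had an SE of 0.79 and an edgeR adjusted p of 0.389. It was 0.50 without disease replicate 4 and 2.17 without control replicate 1, neither past the threshold, and it was called with no filter on low counts (1.34, adjusted p 0.0392). Timp2 leaned the other way, at -0.49 (SE 0.27, edgeR adjusted p 0.357), with disease replicate 3 between the controls.

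Macrophages with a UMI of Cxcl9 or Fcgr4, genes induced by interferon-gamma, had the highest level of Mmp14, and those with Lyve1, Timd4 or Folr2, markers of resident macrophages, the highest level of Timp2, each in 5 of 5 libraries. This division was chosen after values were seen. Mmp14 was at 43.5 and 22.9 CPM in Cxcl9 or Fcgr4 barcodes of controls and at 18.6, 101 and 74.0 CPM in disease, against 2.32 to 4.33 CPM in the resident-marker barcodes. It was higher in the first in 5 of 5 libraries, by a median ratio of 10.04. Barcodes with markers of both kinds or of neither lay between, at 9.79 to 25.3 CPM. The Cxcl9 or Fcgr4 barcodes held 60.7 and 33.3% of the macrophage Mmp14 UMIs in controls and 29.4, 81.9 and 68.4% in disease, so they held most of them in 3 of 5 libraries. Timp2 was at 127 and 145 CPM in Cxcl9 or Fcgr4 barcodes of controls and at 74.6, 52.7 and 61.96 CPM in disease, against 289.6 and 383 CPM and 300.3, 312 and 292 CPM in the resident-marker barcodes. It was lower in the first in 5 of 5 libraries, with a median ratio of 0.248.

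The share of Cxcl9 or Fcgr4 barcodes among macrophages was 18.9 and 9.80% in controls and 9.20, 38.5 and 22.0% in disease replicates 3, 4 and 5. Mmp14 in the whole gate had the same order of libraries, and so had the level of Mmp14 within these barcodes. The parts of share and level in the Mmp14 of the whole gate were not tested. Resident-marker barcodes were 42.4 and 59.8% against 57.6, 21 and 42.9%. Within resident-marker barcodes Timp2 overlapped between the groups, whereas within Cxcl9 or Fcgr4 barcodes the 3 disease libraries were below both controls. In control replicate 2 and disease replicate 3 the Cxcl9 or Fcgr4 division held 40 and 38 barcodes and 6 and 5 Mmp14 UMIs. The median depth of this division was 6095.5 to 8790 UMIs against 4217 to 5756 in the resident-marker division, and the part of depth was not tested.

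**Figure D5:**
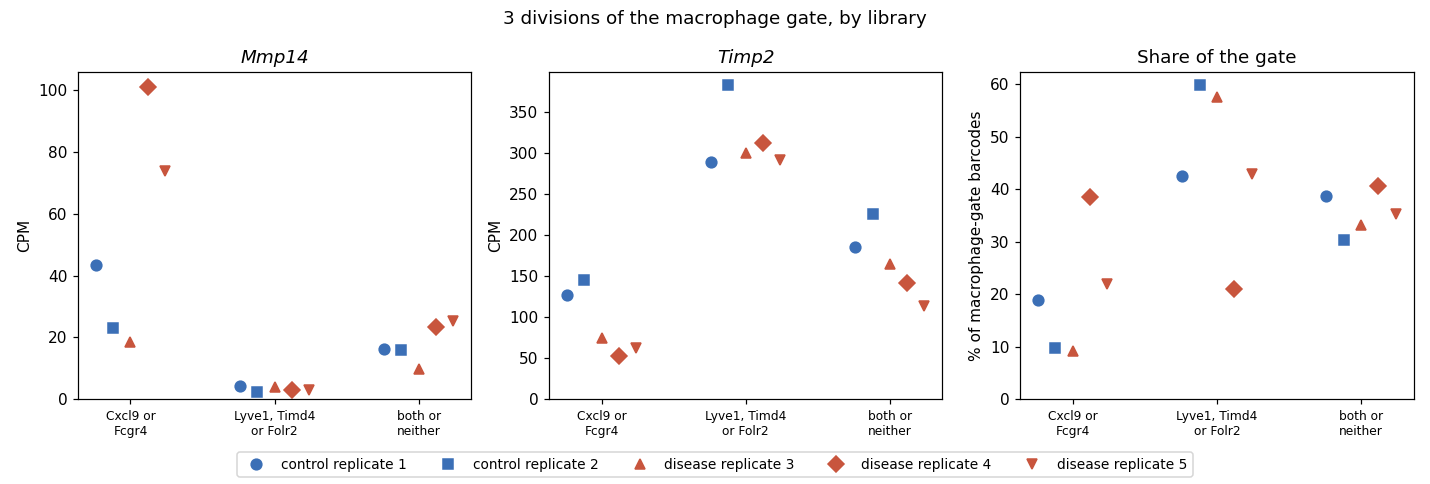
Mmp14 and Timp2 in CPM, and the share of macrophage-gate barcodes in percent, for 3 divisions of the gate, 1 point per library, axes from 0. Mmp14 is highest in Cxcl9 or Fcgr4 barcodes and Timp2 in Lyve1, Timd4 or Folr2 barcodes in each of the 5 libraries; disease replicate 4 has the largest share of the first.

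The endothelial members other than Timp3 gave no call. Timp4 averaged 524 ± 258 CPM (SD, n = 2) in controls and 326 ± 207 CPM (SD, n = 3) in disease, a log2 change of -0.74 with an SE of 0.60 (edgeR adjusted p 0.5005). It was -0.13 without control replicate 2 and -1.34 without disease replicate 3, and passed under neither. Adamts1 was at 0.32 (SE 0.19, edgeR adjusted p 0.352) and Mmp14 at -0.16 (edgeR adjusted p 0.626). In mural cells Adamts1 was at 0.31 (SE 0.40, edgeR adjusted p 0.812). Timp3 was the 1 of 9 endothelial members tested whose groups did not overlap (49.9% of all genes), in mural cells 0 of 2 (31.9%), and in macrophages 1 of 7 (37.4%), Timp1, which was within background there.

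Whether the disease effect itself differed between cell types was tested in 1 model over the 20 sums of 4 gates and 5 libraries. For fibroblasts against endothelial cells 0 of 10 members were called (0.0915% of all genes), for fibroblasts against mural cells 0 of 10 (0.0%) and for fibroblasts against macrophages 0 of 10 (0.137%), in edgeR and likewise in DESeq2. At an unadjusted p under 0.05 there were 1, 1 and 2 members. Mmp14 had the smallest p in the last, with a fibroblast minus macrophage effect of -1.35 (SE 0.45, p 0.00622, edgeR adjusted p 0.520). Without disease replicate 3 it was -1.73 and passed (adjusted p 0.00230), as it did with no filter on low counts.

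Among other genes of the pathway, taken from lists of their kind, several were called lower and none higher, in fits where calls were mostly lower for all genes (12.5% lower and 0.356% higher in fibroblasts, 11.4 and 0.3% in endothelial cells). In fibroblasts 5 of 15 other metalloproteinases tested were lower. Mmp23 was at 212 and 209 CPM in controls and at 78.3, 39.0 and 46.3 CPM in disease (log2 fold change -1.99, edgeR adjusted p 0.0104), and Mmp11, Mmp28 and the disintegrin Adam15 had log2 fold changes of -2.02, -1.80 and -1.22. Adam10, a membrane sheddase, was the fifth, at -0.63. Of 14 other ADAMTS and ADAMTS-like genes 1 fell, Adamts3 (-1.54), which like Adamts2 processes procollagen. The median log2 fold change was -0.36 for the other metalloproteinases and -0.06 for the other ADAMTS genes, against -0.0082 over all genes.

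On the list of other inhibitors and related regulators 2 of 10 genes were lower in disease fibroblasts, 1 of them an inhibitor, and on the list of other proteases 2 of 13, both shares near the 12.5% of all genes. Serpine2, protease nexin-1, an inhibitor of thrombin and plasminogen activators, was at 427 and 404 CPM against 131, 107 and 104 CPM (log2 fold change -1.91, edgeR adjusted p 0.000889). Pcolce2, which is no inhibitor but enhances procollagen C-proteinase, was at 561 and 556 CPM against 176, 166 and 188 CPM (-1.70). The 2 proteases were Htra3 (-1.73) and Htra1 (-1.18), secreted serine proteases, while that list's median was 0.25, and of 10 substrate genes such as Vcan, Fn1 and Fbn1 none passed (3 at an unadjusted p under 0.05). Serpine2 was also called lower in endothelial cells and macrophages, but it was at 2.16 to 3.76% and 1.16 to 1.33% of its fibroblast level there and did not pass the background rule, so these 2 calls are not read as endothelial or macrophage changes. In endothelial cells 5 of 13 other metalloproteinases were called lower, against 11.4% of all genes. Mmp28, Mmp15, Adam15 and Adam10 were above background there, and Mmp11, above its T cell gate level in 4 of 5 libraries, was not by the rule. The lists gave no edgeR call in mural cells (1 gene at an unadjusted p under 0.05).

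With each library's GC trend removed, lower calls went from 1614 to 1203 in fibroblasts and from 1369 to 1054 in endothelial cells, and higher calls from 46 to 163 and from 36 to 151. Base composition moved with the lower calls. Genes called lower had a median GC content of 65.0% in the first 300 bases of the transcript, against 58.5% over all genes. Mmp23, Mmp28, Mmp15, Adam15, Adam10, Pcolce2 and Htra1 were above 65.0%, while Mmp11, Htra3, Serpine2 and Adamts3, at 63.8, 59.0, 48.7 and 45.3%, were not. In the fit with that trend removed, Adam10 went from -0.63 to -0.17 in fibroblasts and from -0.62 to -0.19 in endothelial cells and no longer passed (edgeR adjusted p 0.429 and 0.372). Endothelial Adam15 (from -0.88 to -0.42, edgeR adjusted p 0.103) and fibroblast Htra1 (from -1.18 to -0.71, 0.0865) also missed the threshold. Endothelial Mmp11 missed it too (0.0761), going from -1.47 to -1.20. The other genes named as lower still passed. The part of base composition in these falls was not tested beyond this fit. Adamts5, at 58.3% GC, kept a log2 fold change of -0.50 (edgeR adjusted p 0.0492). Timp3, at 64.7%, had 0.92 in endothelial cells (adjusted p 0.00865).

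Genes that followed each member most closely over the 20 sums were ranked by Pearson correlation of log2(CPM + 1) among 6326 genes. The 5 sums of a gate share a cell type and the 4 of a library share its mice and depth, so these are descriptions. Timp1 was closest to Cilp (r = 0.974), a matrix gene, then Itgbl1 and Serpina3n. Mmp2 was closest to Col3a1 (0.981), and Adamts5 to Col8a1 (0.979), both collagen genes. Mmp3 was closest to Sox9 (0.992) and Adamts2 to Scara5 (0.993). Timp4 was closest to Gpr4 (0.983) and Abcb1a (0.980), an efflux pump. Timp3 followed Nckap1 (0.989), and Adamts1 followed Pcdh19 (0.990) and Lamb2 (0.988). Mmp14 had no gene above 0.897 (Gpr108).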

How the data were processed

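Single cells from 5 libraries of sorted mouse heart cells were measured. The authors deposited raw UMI counts, 1 matrix of genes by barcodes for each library, and the file headers give the software version as 3.1.0. The submitters' processing notes name Cell Ranger 3, Seurat 3 and 2 builds, GRCh38 and mm10; aligner settings and cell calling are not given in the sources used here. Positions come from GENCODE on GRCm38, matched by gene ID. The members and all lists were chosen with earlier results of these data known. All members are named. Of each pathway list, up to 4 called genes per gate are named, and Adam10 besides, and of the likeness ranking up to the first 3, with 1 result not reported here. Doublets were limited by the rule on other classes' markers, with no caller.

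UMIs were summed per gate and library, and CPM uses the plain total of that sum. Tests used edgeR 4.0.16 in R 4.3.3 (TMM, filterByExpr, quasi-likelihood F test) with Benjamini-Hochberg adjustment over all genes tested and 0.05 as the threshold. Disease was compared with control in each gate, and gates with each other with library as a block. Standard errors are those of the log2 fold change. Scripts were tested on simulated data. Alternatives were DESeq2 1.42.0, no filter on low counts, a strict gate (4 markers, none of another class) and a loose gate, up to 25% mitochondrial UMIs, leaving out the deepest 5% of barcodes, a GC trend, each library left out, and plain totals. Plain totals, and the loose gate between gates, were added after seeing the data. Intervals and floors cover counting error only.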

Additional observations from a re-analysis of the deposited data

How the results depend on the processing

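No paired analysis was possible because the control libraries are numbered 1 and 2 and the disease libraries 3, 4 and 5, so the groups share no number. The strict gate left 0 mural barcodes in disease replicate 4, so no mural fit could be made with it. Called genes between disease and control were 1405 in endothelial cells and 760 with the strict gate. They were 707 in macrophages, 387 with the strict gate and 1342 with no filter on low counts. They were 48 in mural cells, 22 with DESeq2, 146 with no filter, 229 with the loose gate, and 28 without the deepest 5% of barcodes and likewise 28 with the GC trend removed. Between gates the strict gate gave 5837 for fibroblast against endothelial (9213), 6128 for fibroblast against macrophage (9606) and 5502 for endothelial against macrophage (9395). Genes whose disease effect differed between fibroblasts and endothelial cells numbered 12, and 5 with DESeq2, 90 with no filter, 4 with the strict gate, 2 with the loose gate and 7 with plain totals. Between fibroblasts and mural cells they were 0 by edgeR, 1 with DESeq2 and 47 with no filter. Between fibroblasts and macrophages they were 18, then 132 with no filter, 0 with the strict gate and 31 with the loose gate. With 1 library left out in turn, the disease calls ranged from 780 to 1772 in fibroblasts (1660 with all 5), 713 to 1393 in endothelial cells, 6 to 36 in mural cells and 196 to 972 in macrophages, and the disease effects between gates from 2 to 73, 0 to 2 and 5 to 125 genes. Gate against gate, they ranged from 8359 to 9160 (fibroblast, endothelial), 2265 to 2895 (fibroblast, mural; 3320 with all 5), 8805 to 9271 (fibroblast, macrophage), 2676 to 3469 (endothelial, mural; 3789), 8591 to 9039 (endothelial, macrophage) and 3862 to 4311 (mural, macrophage). Direction turned for small differences: with the GC trend removed for fibroblast Adamts2 (0.14), Timp2 (0.20) and Adamts1 (0.021) and endothelial Mmp14 (0.12), with the strict gate for fibroblast Adamts1 (0.011), and with the loose gate for Timp3, fibroblast against mural (-0.071). With 1 library left out it turned for fibroblast Adamts2 (-0.45 to 0.28, positive without control replicate 2), fibroblast Adamts1 (-0.15 to 0.035, positive without control replicate 1), mural Adamts1 (-0.16 to 1.08, negative without control replicate 1) and the fibroblast minus endothelial effect on Adamts5 (-0.33 to 0.090, positive without disease replicate 4). Except where the setting tests fewer samples or barcodes, the cause was not tested. The mural gate had the fewest UMIs, 27084 to 103399 per library, from 11 to 30 barcodes. Its median depth per barcode was 1998 to 3259 UMIs, near the 2227 to 3047.5 of endothelial barcodes.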

Other observations

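Rare endothelial and mural cells held some members at other levels, given here with their small numbers and with no test. Lymphatic endothelial barcodes (at least 2 of Prox1, Lyve1, Flt4 and Mmrn1, 7 to 24 per library and 76 in all) had Timp3 at 2164.5 and 3538 CPM in controls and at 2707, 1042 and 2261 CPM in disease, above the remaining endothelial cells in 4 of 5 libraries. They also had Timp2, at 555 and 357 CPM in controls and at 533, 109.6 and 457 CPM in disease, where the remaining endothelial cells had 13.8 to 24.4 CPM. Lymphatic Timp4 had 69 UMIs in all.

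Endocardial barcodes, with a UMI of the natriuretic peptide receptor gene Npr3 (8 to 33 per library), had Timp3 at 569.6 and 1069 CPM in controls against 1880.3, 2295 and 2049 CPM for disease replicates 3, 4 and 5, and Timp4 at 401 to 578 CPM. Their 3 disease libraries lay above both controls for Timp3, as in the remaining endothelial cells. Smooth muscle barcodes (Myh11 with no Kcnj8 or Abcc9, 39 in all) held 134 UMIs of Adamts1 and 98 of Timp3, and pericyte barcodes (Kcnj8 or Abcc9 with no Myh11, 46 in all) held 51 and 82.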
